A study of Homo sapiens with 6 samples.

Results

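The V0 sector is the membrane-embedded portion of the vacuolar proton ATPase (V-ATPase), the rotary pump that acidifies lysosomes, endosomes and the Golgi. The genes described here were the 8 rows of the deposited table whose symbols name a V0 subunit or an accessory protein of the pump, out of 23827 rows. They were ATP6V0A1, ATP6V0A2, ATP6V0B, ATP6V0C, ATP6V0D1, ATP6V0E1, ATP6AP1 and ATP6AP2. RNA came from A549 cells, an established line from a human lung adenocarcinoma, in 2 groups of 3 libraries. In the first group, lactic acid was put into the culture medium at 20 mM for 24 h. In the second, phosphate-buffered saline (PBS) was given in matching volume for the same time. Both groups were the same single cell line, and no arm with lactate salt or with another acid was analysed here, so lactate and acidity cannot be told apart.

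In the working pump, the cytosolic V1 sector splits ATP and turns a ring of proteolipid subunits in V0, and protons cross the membrane between that ring and subunit a. Several V0 subunits exist as alternative isoforms that differ in tissue and compartment. Many genes of the pump and of the lysosome belong to a common set bound by TFEB and its relatives, transcription factors that recognise E-box sequences. The pump is also a docking site for the Ragulator and Rag GTPase complex, which brings the growth kinase mTORC1 to the lysosome.

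Transcripts of 7 of the 8 genes rose after lactic acid and 0 fell, and ATP6AP2 did not pass the test. The changes were small, with fold changes among the 7 between 1.12 and 1.40. The median log2 fold change over the 8 genes was 0.30, beside 0.0024 over all 15474 genes tested. A rise was called for 18.7% of all genes tested and a fall for 16.7% (edgeR quasi-likelihood test, adjusted p under 0.05). All 8 genes passed the filter on low counts. Their mean CPM exceeded that of 66.6% (ATP6V0B) to 95.5% (ATP6AP2) of genes tested. The shares above are over genes of all levels, and the share called among genes of similar level is not given here. For 7 of the 8, every lactic acid library stood above every PBS library; over all genes tested this held for 24.4%, and the opposite for 23.1%. In CPM, read counts scaled to a common library size, the 8 genes together summed to between 828.3 and 840.2 in the lactic acid libraries, against 676.7 to 705.3 in the PBS libraries.

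**Figure D1:**
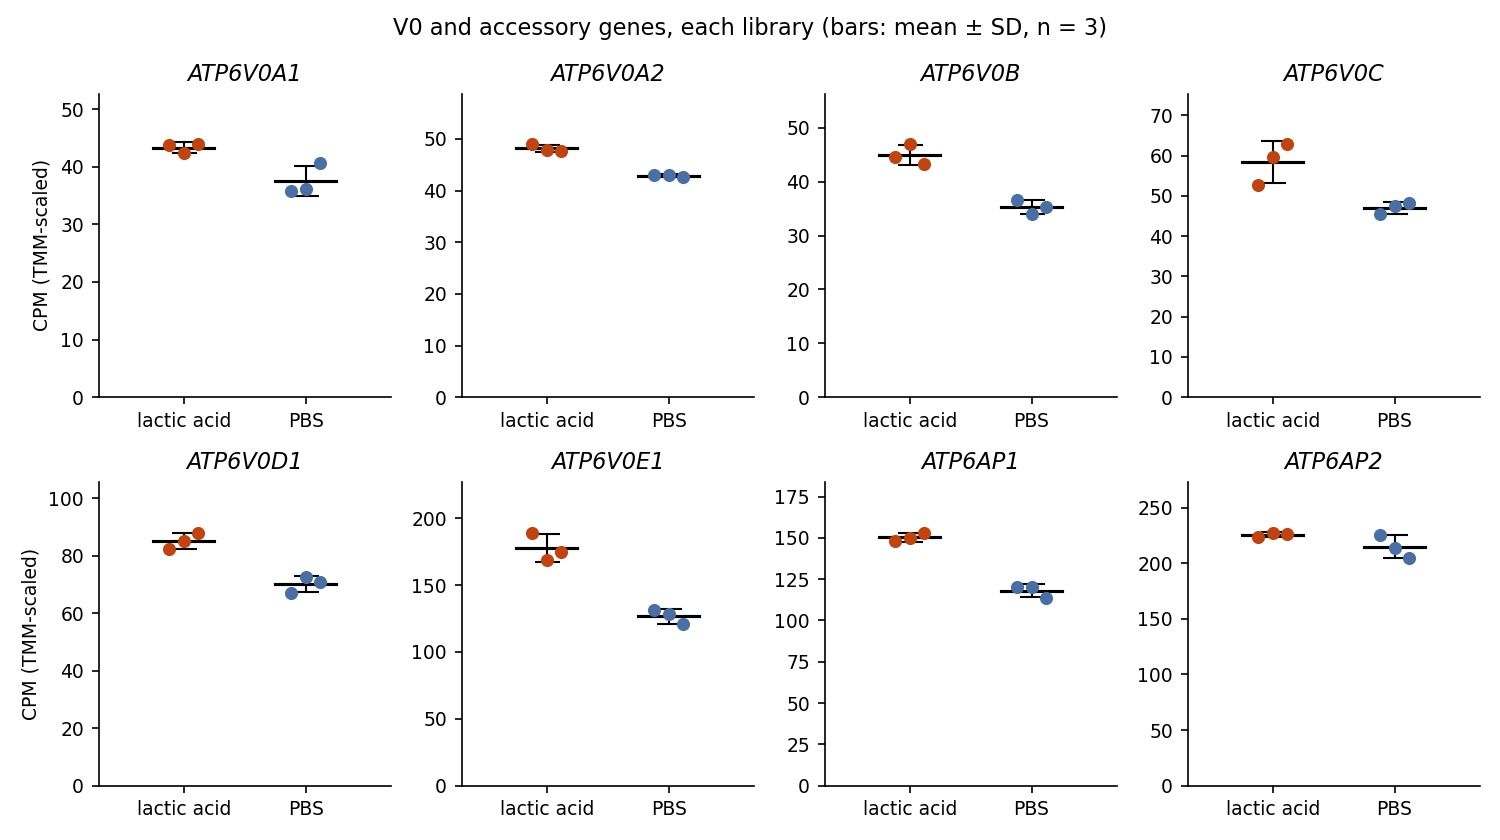
Level of each gene in CPM (vertical axes, starting at 0 and scaled separately), with 1 point per library, a bar at the mean and whiskers of 1 SD over 3 libraries, for lactic acid and PBS. The lactic acid points lie above the PBS points for each gene except ATP6AP2, where the first PBS library, at 225.5 CPM, falls among them.

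Libraries held between 33492831 and 42938870 counts in genes. The labels call the libraries biological replicates and do not say whether they came from separate cultures, so p-values cover the spread between these samples. Keratin genes of the epithelium were abundant: KRT7, KRT8 and KRT18 together with KRT19, EPCAM and CDH1 summed to between 4057 and 4156 CPM after lactic acid, against 4762 to 5039 in PBS. EPCAM, at 1.62 CPM after lactic acid and 3.29 in PBS, and CDH1, at 11.8 after lactic acid and 20.1 in PBS, added little to this sum. Of these 6 epithelial genes 1 rose and 4 fell. Beside this and the marker counts below, 18.7% of all genes tested were called higher and 16.7% lower. Of the blood-cell markers, CD3E and LYZ had 0 counts and PTPRC 2 counts in all. CD68 and CD14, the 2 tested, brought the list to between 33.8 and 38.5 CPM after lactic acid and 44.1 to 48.0 in PBS, and CD68 fell. The 6 fibroblast markers summed to between 80.7 and 88.1 CPM after lactic acid and 112.9 to 126.0 in PBS, mostly COL1A1, and 4 of 4 tested fell. The 4 endothelial markers summed to at most 0.24 CPM after lactic acid and 0.147 in PBS, and CDH5 had 0 counts. The part of these shifts in the V0 results was not tested. In bulk RNA, fewer cells of a kind and less RNA per cell cannot be told apart.

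The proteolipid ring is built from the products of ATP6V0C, subunit c, and ATP6V0B, the related subunit c″, which carry the protons. ATP6V0C (chromosome 16, 2513870 to 2520218, plus strand, GRCh38) had 52.8, 59.7 and 62.9 CPM after lactic acid, against 45.5, 47.4 and 48.3 CPM in PBS. The lowest lactic acid library stood above the highest PBS library, although the lactic acid values were spread more widely. The gene rose 1.24-fold (log2 fold change 0.31, SE 0.0576, edgeR adjusted p = 0.00135). ATP6V0B (chromosome 1, 43974487 to 43978295, plus strand) had 44.5, 47.0 and 43.3 CPM after lactic acid, against 36.6, 34.1 and 35.3 CPM in PBS. Its groups were well separated, and it rose 1.27-fold (log2 fold change 0.35, SE 0.0458, edgeR adjusted p = 0.000126). ATP6V0C has 4 processed pseudogenes in the annotation, none of them a row of the table, so reads shared with them cannot be placed. The 2 overlapping protein-coding genes on its strand that do have rows held 0 counts. ATP6V0B overlaps an antisense gene without a row, and whether counting used the strand is not known.

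Subunit d, encoded by ATP6V0D1, joins the ring to the central shaft of V1. ATP6V0D1 (chromosome 16, 67438014 to 67481237, minus strand) had 82.3, 85.3 and 88.1 CPM after lactic acid, against 67.1, 72.5 and 70.8 CPM in PBS. The groups did not overlap, and the gene rose 1.22-fold (log2 fold change 0.28, SE 0.0412, edgeR adjusted p = 0.000278). Its paralog ATP6V0D2, known from osteoclasts and kidney, was close to absent, with 9, 8 and 14 counts in the lactic acid libraries and 2, 0 and 4 counts in the PBS libraries. That gene did not pass the filter on low counts and was not tested. The 0 in the second PBS library allows up to 0.0896 CPM, counting error only.

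The promoters of ATP6V0D1 and ATP6V0B are shown because they hold the E-box letters CACGTG that TFEB and its relatives can bind, and ATP6V0E2 is shown as the paralog that holds them too. Windows of 300 bases, from 250 before to 50 after each RefSeq start site (GRCh38.p14), were found for 7 of the 8 genes, all but ATP6V0E1. The 30 bases around the matches are given 5′ to 3′ on the gene's strand, with the matched letters in capitals.
ATP6V0D1: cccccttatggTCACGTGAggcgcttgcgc
ATP6V0B: ggtCACGTGgtaccggcgcatCACGTGggc
ATP6V0E2: tcccttctgcatCACGTGgggactgcgcct
These stretches lie at chr16:67481199-67481228 on the minus strand, chr1:43974900-43974929 on the plus strand and chr7:149872884-149872913 on the plus strand. Counted from the start site, with negative values upstream, the first bases of the matches stand at −60 in ATP6V0D1, at −57 and −39 in ATP6V0B, and at −72 or −68 from neighbouring start sites in ATP6V0E2. For ATP6V0D1 and ATP6V0B the printed bases also fall in an untranslated region of some transcript in GENCODE release 29. CACGTG was present in 7.26% of all 35116 promoter windows and in 2 of the 7 V0 genes with a window. For this and the motifs below, the share counts windows and the V0 figure counts genes, which had 8 windows between them. The longer TCACGTGA, which contains CACGTG and reads the same on both strands, was in 0.98% of windows and, here, in ATP6V0D1. Extended by a G in front and a C behind, TCACGTGA was in 0.353% of windows and in 0 of the 7. TGACGTCA, the cyclic-AMP response element, also the same on both strands, was in 1.85% of windows and in 0 of the 7. GGGCGG, the core of the GC box, searched on both strands, was in 45% of windows and in 6 of the 7, with ATP6V0D1 the one without it. A match describes letters only, and whether the motifs bear on the changes was not tested. ATP6V0C, ATP6AP1, ATP6AP2, ATP6V0A1 and ATP6V0A2 had no CACGTG in these windows.

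Subunit e is a small membrane protein of V0 encoded by ATP6V0E1 and ATP6V0E2. ATP6V0E1 (chromosome 5, 172983757 to 173035445, plus strand) had 189.2, 168.8 and 174.6 CPM after lactic acid, against 131.4, 128.2 and 120.6 CPM in PBS. Each lactic acid library stood at least 1.28-fold above each PBS library, and no other of the 8 genes had a larger change in edgeR's fit. The gene rose 1.40-fold (log2 fold change 0.49, SE 0.0489, edgeR adjusted p = 1.57e-05). ATP6V0E1 has 4 processed pseudogenes without rows in the table. ATP6V0E2 had 38.3, 39.0 and 43.9 CPM after lactic acid, against 33.6, 37.5 and 37.4 CPM in PBS. Its lowest lactic acid library stood just above its highest PBS library, and it did not pass the test (log2 fold change 0.16, 95% interval 0.024 to 0.29, edgeR adjusted p = 0.066). With the third lactic acid library left out its log2 fold change was 0.090 (edgeR adjusted p = 0.281), and with the first PBS library left out 0.10 (0.238).

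Subunit a is the stationary partner of the ring, and its isoforms direct the pump to different membranes: a1, from ATP6V0A1, is best known from nerve terminals, a2, from ATP6V0A2, from the Golgi and endosomes, and a3, from TCIRG1, from lysosomes and the osteoclast border. ATP6V0A1 (chromosome 17, 42458844 to 42522611, plus strand) had 43.7, 42.3 and 43.9 CPM after lactic acid, against 35.8, 36.1 and 40.6 CPM in PBS. The third PBS library stood well above the other two and close to the lactic acid values. The gene rose 1.15-fold (log2 fold change 0.21, SE 0.0516, edgeR adjusted p = 0.00887), a call lost without the second PBS library (adjusted p = 0.0516). ATP6V0A2 (chromosome 12, 123712318 to 123761755, plus strand) had 49.0, 47.8 and 47.7 CPM after lactic acid, against 43.1, 43.1 and 42.6 CPM in PBS. These were the tightest PBS values of the 8 genes, and the gene rose 1.12-fold (log2 fold change 0.17, SE 0.0361, edgeR adjusted p = 0.00381). Limma-trend on log2(FPKM + 1) ended both calls, with log2 fold changes of 0.18 (adjusted p = 0.0545) for ATP6V0A1 and 0.092 (adjusted p = 0.137) for ATP6V0A2. FPKM are the authors' values per kilobase of transcript, scaled for library size, and on that scale 14.8% of 12145 genes were called higher.

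TCIRG1, the paralog of these genes that is not among the 8, went the other way. It had 70.6, 75.6 and 75.1 CPM after lactic acid, against 76.5, 85.7 and 80.6 CPM in PBS. The second lactic acid library, the highest of its group, stood just below the lowest PBS library, and the gene fell (log2 fold change −0.13, SE 0.0466, edgeR adjusted p = 0.0443). This call was lost without the first lactic acid (adjusted p = 0.145), the third lactic acid (0.0584), the second PBS (0.132) or the third PBS library (0.0831). ATP6V0A4, the kidney isoform, had 6, 22 and 8 counts in the lactic acid libraries and 10, 6 and 14 in the PBS libraries, with groups that overlapped (edgeR adjusted p = 0.87). ATP6AP1L, related by name to ATP6AP1, had 15, 17 and 15 counts after lactic acid and 20, 27 and 18 in PBS (log2 fold change −0.58, 95% interval −1.36 to 0.19, edgeR adjusted p = 0.228), and its log2 fold change was −0.36 without the second PBS library (adjusted p = 0.571).

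Per length, TCIRG1 was the main subunit a transcript in both groups. Its share of the summed FPKM of ATP6V0A1, ATP6V0A2, TCIRG1 and ATP6V0A4 was 57.5%, 60.1% and 59.7% after lactic acid, against 63.9%, 66.4% and 63.3% in PBS. ATP6V0A1 made up 25.6%, 23.3% and 24.2% after lactic acid, against 20.8%, 19.1% and 22.1% in PBS. ATP6V0A2 made up 16.7%, 16.3% and 15.9% after lactic acid, against 15.1%, 14.5% and 14.4% in PBS. For these 3 shares the groups did not overlap, with mean differences of −5.40, 3.76 and 1.63 percentage points. Each gave the smallest p that an exact two-sided permutation test of 3 against 3 libraries can give, 0.1, and 0.15 after adjustment over 6 shares tested, so the design could not pass a threshold of 0.05. The share of ATP6V0E1 in subunit e was 88.6%, 85.1% and 86.4% after lactic acid, against 86.7%, 82.5% and 84.0% in PBS, and these groups overlapped (mean difference 2.28 points, exact permutation p = 0.3, adjusted p = 0.36). With counts over implied length in place of FPKM the difference was 2.78 points and the groups did not overlap (exact permutation p = 0.1). With 1 library left out it ranged from 1.33 points, without the first lactic acid library, to 3.43, without the first PBS library, and it was 1.34 without the second PBS library. ATP6V0D1 held at least 99.7% of subunit d in every library (mean difference −0.16 points, exact permutation p = 0.1, adjusted p = 0.15), and ATP6V0A4 at most 0.329% of subunit a (exact permutation p = 0.9).

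**Figure D2:**
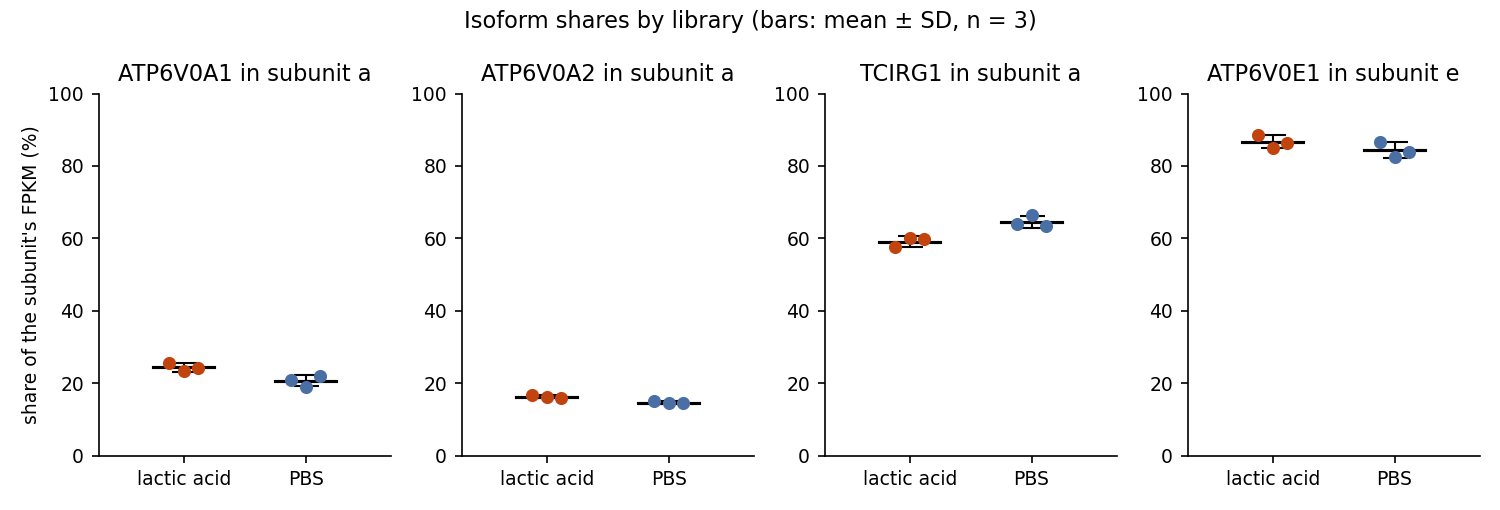
Share of a subunit's summed FPKM, in percent (vertical axes from 0 to 100), taken by each named isoform in each library, with the mean and 1 SD over 3 libraries, for lactic acid and PBS. TCIRG1 averages 59.1% after lactic acid and 64.5% in PBS, with ATP6V0A1 and ATP6V0A2 above their PBS shares in each library.

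The accessory proteins assist assembly and traffic of the pump: ATP6AP1, also called Ac45, sits in V0, and ATP6AP2, also known as the prorenin receptor, spans the membrane beside it. ATP6AP1 (chromosome X, 154428632 to 154436516, plus strand) had 147.9, 149.8 and 153.2 CPM after lactic acid, against 120.4, 120.2 and 113.4 CPM in PBS. The groups were far apart relative to their spread, and the gene rose 1.27-fold (log2 fold change 0.35, SE 0.0382, edgeR adjusted p = 3.15e-05). ATP6AP2 (chromosome X, 40579372 to 40606848, plus strand) had 223.5, 227.6 and 226.5 CPM after lactic acid, against 225.5, 213.7 and 205.0 CPM in PBS. The groups overlapped through the first PBS library, and the gene did not pass the test (log2 fold change 0.073, 95% interval −0.013 to 0.16, edgeR adjusted p = 0.173). Its log2 fold change was 0.036 without the third PBS library (adjusted p = 0.55) and 0.10 without the first, with adjusted p = 0.0568. The interval from all 6 libraries reaches up to a 1.12-fold rise, and it lies wholly below the intervals of ATP6AP1, ATP6V0B, ATP6V0C, ATP6V0D1 and ATP6V0E1; the difference between genes was not tested. The number of ATP6AP1 counts for each ATP6AP2 count, which library scaling does not affect, was 0.662, 0.658 and 0.676 after lactic acid, against 0.534, 0.562 and 0.553 in PBS. This ratio was chosen after the values were seen, and no test was made of it.

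**Figure D3:**
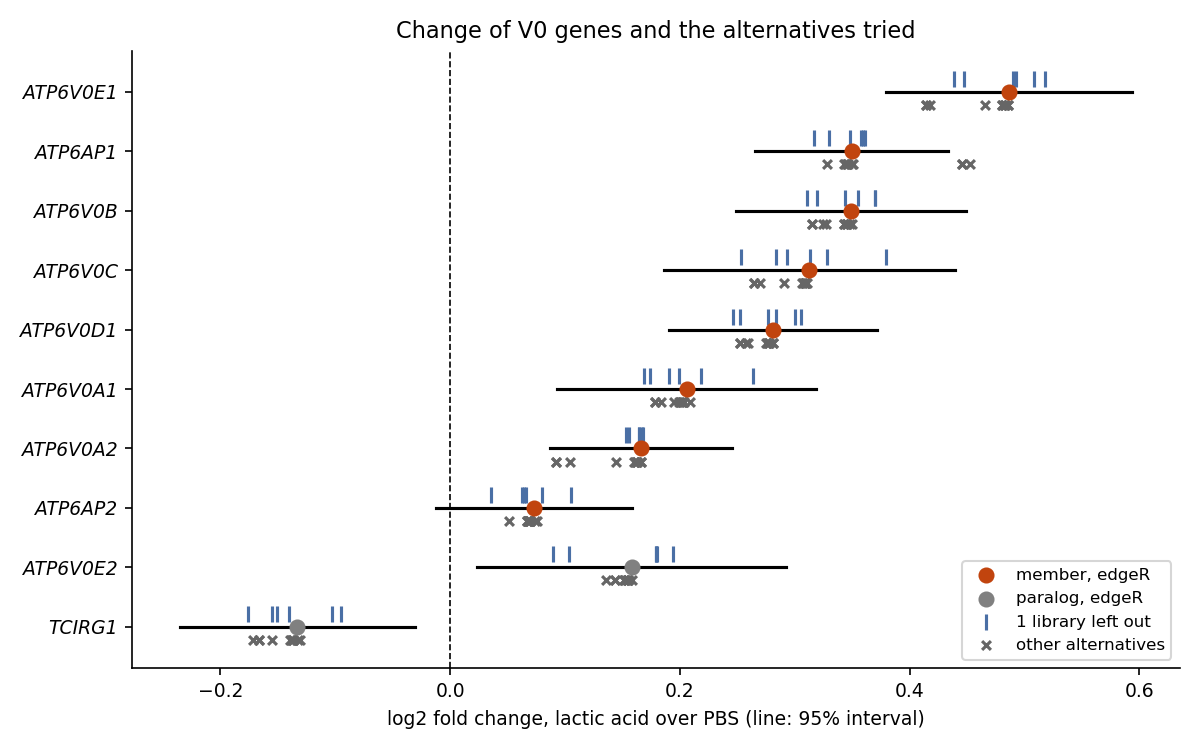
Log2 fold change of lactic acid over PBS (horizontal axis) for the 8 genes, from ATP6V0E1 at the top to ATP6AP2, and for the 2 paralogs above 5 CPM below them; circles and black lines are edgeR's estimate and 95% interval, blue ticks are fits with 1 library left out and crosses the other alternatives. Each tick and cross of the 8 genes lies right of 0, and those of TCIRG1 lie left of it.

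Levels of different genes were compared per length, in FPKM. ATP6V0E1 ranked highest after lactic acid at 117.2 ± 6.67, ahead of ATP6AP2 at 99.1 ± 5.76, while in PBS ATP6V0E1 averaged 87.7 ± 3.47 and ATP6AP2 94.4 ± 1.34 (SD, n = 3 each). Next came ATP6AP1, at 64.1 ± 3.45 FPKM after lactic acid and 46.7 ± 0.601 in PBS. ATP6V0D1 stood at 47.2 ± 0.733 FPKM after lactic acid and 39.5 ± 1.65 in PBS, and ATP6V0C at 46.0 ± 4.05 after lactic acid and 38.1 ± 1.55 in PBS; these were the only neighbours among the 8 whose ranges overlapped in either group. ATP6V0B averaged 31.8 ± 1.49 FPKM after lactic acid and 25.4 ± 0.576 in PBS. At the low end, ATP6V0A1 averaged 10.8 ± 0.443 FPKM after lactic acid and 9.45 ± 0.772 in PBS, and ATP6V0A2 7.22 ± 0.112 after lactic acid and 6.72 ± 0.138 in PBS. Of the paralogs, TCIRG1 averaged 26.2 FPKM after lactic acid, below ATP6V0B, and 29.6 in PBS, above it. ATP6V0E2 averaged 17.9 FPKM after lactic acid and 16.2 in PBS, next above ATP6V0A1 in both groups.

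The profile of the 8 genes over the 6 libraries was nearly flat within each group. Averaged over the genes, log2 CPM relative to each gene's own mean was 0.12, 0.14 and 0.15 in the lactic acid libraries, against −0.13, −0.14 and −0.14 in the PBS libraries. ATP6V0D1 lay closest to this profile, with a root mean square difference of 0.040 log2 units, and ATP6V0E1 farthest, with 0.12. Other genes were compared with this profile if they had a name and at least 5 CPM, 10749 in all. Every gene of the lists used here was left out, those of V1 and the lysosome included. The nearest were ALKBH5, an RNA demethylase, SKAP2, an adaptor protein, and MAP2K1, the kinase MEK1. UBAP1, a subunit of the endosomal sorting complex ESCRT-I, and ZFYVE26, a protein of endosomes and lysosome renewal, came next. The root mean square differences of these genes from outside the lists were 0.013 to 0.017 over the 6 libraries, and their own log2 fold changes were 0.26 to 0.28. They were picked for closeness to the mean profile, so small differences and similar fold changes followed from the choice.

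Genes of the cytosolic V1 sector mostly rose as well. Of 13 V1 genes 12 were tested, 8 rose and 1 fell, with a median log2 fold change of 0.28. Over all genes tested, 18.7% were called higher and 16.7% lower. The 8 were ATP6V1A, ATP6V1B2, ATP6V1C1, ATP6V1D, ATP6V1E1, ATP6V1F, ATP6V1G1 and ATP6V1H. ATP6V1E1, of the peripheral stalk, averaged 77.9 ± 0.982 CPM after lactic acid and 53.9 ± 2.94 in PBS, a rise of 1.45-fold, and ATP6V1C1, which links stalk and membrane sector, rose 1.35-fold. The gene that fell, named after its values were seen, was ATP6V1G2, an isoform known from neurons, at 0.551 ± 0.0912 CPM after lactic acid and 1.19 ± 0.36 in PBS. Its call was lost without the second lactic acid (adjusted p = 0.0669) or the second PBS library (0.0839). Of the 8 rises, 7 held under all 17 alternatives, while that of ATP6V1G1 was lost under 11. ATP6V1B1, ATP6V1C2 and ATP6V1E2 had overlapping groups and no call, and ATP6V1G3 had 0 counts.

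Factors that assemble or regulate the pump did not share a direction. Of 13 tested, 4 rose and 4 fell, and the median log2 fold change was −0.0014. The shares called over all genes tested were 18.7% higher and 16.7% lower. RNASEK, a small membrane protein bound to the pump, rose 1.18-fold, with 72.5 ± 2.95 CPM after lactic acid and 61.6 ± 1.77 in PBS. DMXL1, of the complex that rejoins V1 to V0, rose 1.09-fold. ROGDI, a partner in the same complex, fell with a log2 fold change of −0.30, and OXR1, of a protein family that binds V1, with −0.24. VMA21, an assembly chaperone of V0 in the endoplasmic reticulum, rose 1.07-fold, a value named after it was seen (log2 fold change 0.10, edgeR adjusted p = 0.046). Also named after their values were seen, DMXL2 rose, and NCOA7 and TMEM9 fell. Of 17 alternatives, 14 lost the call of VMA21, 10 that of DMXL1, 8 that of DMXL2 and 1 that of RNASEK. Among the falls, 7 lost the call of TMEM9, 5 that of ROGDI, and 0 those of NCOA7 and OXR1. The rises numbered 1 with library totals alone in place of TMM, on the FPKM scales, and without the third lactic acid or the second or the third PBS library, and 2 without the first lactic acid library. The falls numbered 2 without the first lactic acid, the second PBS or the third PBS library, and with limma-trend on unfiltered FPKM.

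Other lysosomal genes gave the following counts, beside 18.7% called higher and 16.7% called lower over all genes tested. Of 14 ion channels and exchangers 6 rose and 1 fell (median log2 fold change 0.14), with OSTM1, the partner of the lysosomal chloride transporter CLCN7, up 1.60-fold, CLCN5, an endosomal one, up 1.53-fold, and TPCN2, a lysosomal cation channel, at −0.34. Of 18 genes for Ragulator, the Rag GTPases and the TFE factors 11 rose and 2 fell (median 0.35), with RRAGD, a Rag GTPase, up 2.03-fold (24.6 ± 0.879 CPM after lactic acid and 12.1 ± 0.731 in PBS), FLCN, its GTPase activator, up 2.05-fold, MTOR at −0.16 and TFEB at −0.35. Among 20 lysosomal membrane proteins and hydrolases 17 rose and 1 fell (median 0.38), with NPC1, the cholesterol exporter, up 2.36-fold, the sialidase NEU1 up 2.54-fold and the glucosidase GAA at −0.22. For acid extrusion at the plasma membrane, 4 of 9 tested genes rose and 2 fell (median 0.096), with the carbonic anhydrases CA9 and CA12 up 3.38-fold and 1.64-fold and the bicarbonate carriers SLC4A8 and SLC4A7 at −0.31 and −0.25. The falls in the Ragulator list numbered 1 in place of 2 without any single library other than the first PBS one, and with the replicate number as a block. Those in the acid extrusion list numbered 1 in place of 2 without the first or the second lactic acid or the second or the third PBS library. The same held for the acid extrusion list on every FPKM scale. The fall of TFEB (edgeR adjusted p = 0.0352) lost its call under 6 of 17 alternatives, and that of MTOR under 0. SLC4A8 lost its call under 5 of the 15 alternatives that tested it, and SLC4A7 under 0 of 17. No test of the lists against each other was made.

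**Figure D4:**
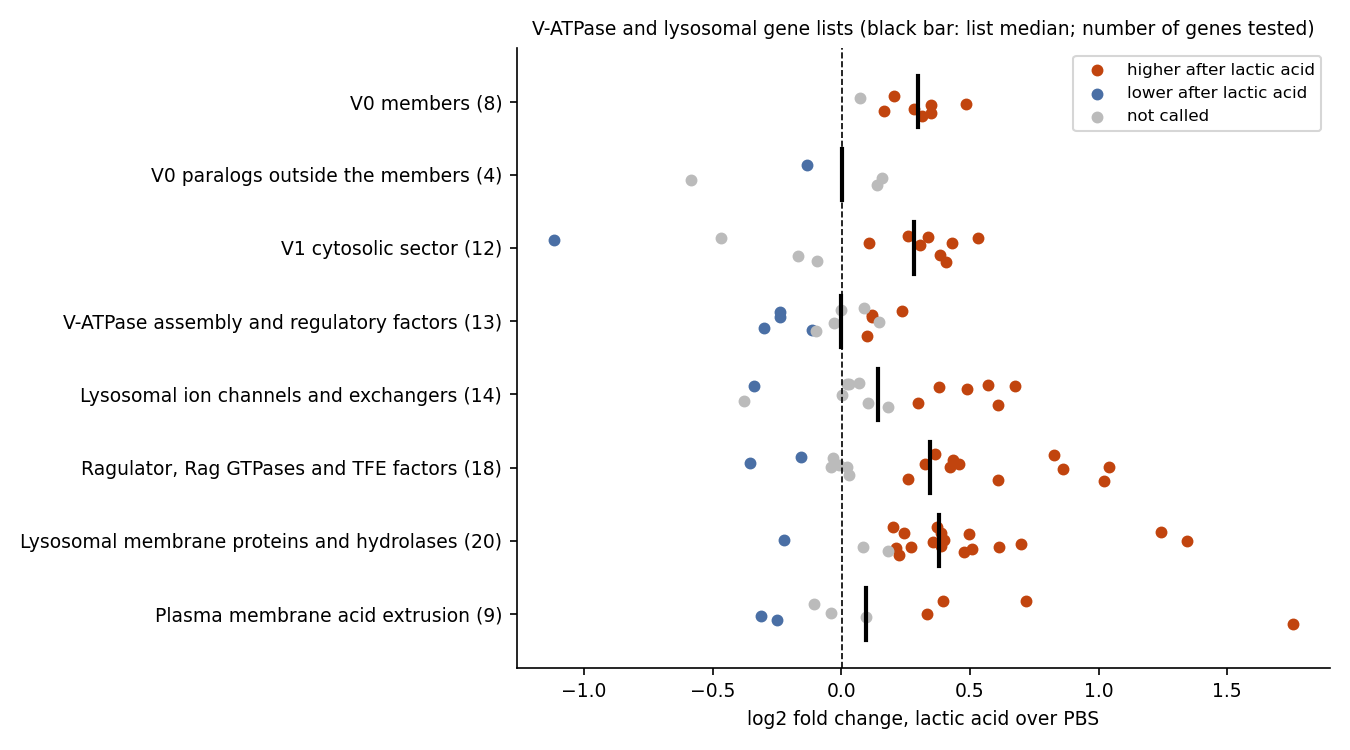
Log2 fold change of lactic acid over PBS (horizontal axis) for each tested gene of 8 lists, with the number tested in brackets, a black bar at each list's median and a dashed line at the median of all genes; colours mark genes called higher, called lower or not called by edgeR. The V0 points run from 0.073 to 0.49, and the assembly and regulatory factors are spread on both sides of 0.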

How the data were processed

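The authors deposited whole-number counts per gene and FPKM per gene for the same 6 libraries of poly(A) RNA, read as 150 bp pairs per the labels' protocols. Per the submitters' processing notes, the tools and build were HISAT2, StringTie, DESeq2 and GRCh38, with no version or role; which annotation and strand setting they used, and how reads with several matches were handled, is not given in the sources used here. Columns called NS were matched to the PBS samples through their library names. All 19974 Ensembl identifiers matched GENCODE release 29.

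Counts were fitted over the whole table with edgeR 4.0.16 (TMM factors 0.9885 to 1.017; filterByExpr at 10 counts and a total of 15; quasi-likelihood F test, two-sided, group only), adjusted by Benjamini-Hochberg. The SE is the log2 fold change over the square root of F. The test was checked on simulated counts. Replicates differed beyond counting noise (chi-square 6.03 to 8.68 per degree of freedom). Deposited FPKM served for levels between genes. Promoter windows are from RefSeq.

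The members, gene lists, tests and alternatives were chosen with earlier results of these data known. Outside V0, each list names up to 2 called genes per direction, with the largest changes at a mean of at least 5 CPM; the lists share MCOLN1. One marker gene is not reported here. The alternatives were RLE factors, library totals, DESeq2 1.42.0, limma-voom (limma 3.58.1), no filter, 50 counts in 3 libraries, protein-coding genes, each library left out, the replicate number as a block, and limma-trend on the FPKM (pseudocount 1 or 0.1, keeping genes that reach 1 FPKM in 3 libraries; pseudocount 1 also unfiltered). With 1 library left out, a group of 2 remains.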

Additional observations from a re-analysis of the deposited data

How the results depend on the processing

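All 136 alternative estimates of the 8 genes (17 for each) were above 0; 129 kept their side of the threshold and 7 lost the call, 4 of them for ATP6V0A1 and 3 for ATP6V0A2, so that between 5 and 7 genes were called higher and 0 lower. ATP6AP2 stayed without a call, with adjusted p from 0.0568 to 0.55. ATP6V0A4, at 66 counts in all, ranged from −0.53 to 0.41 with a library left out, at −0.53 without the second lactic acid library and −0.093 without the second PBS library, and had no call in either; the cause was not tested. The share of TCIRG1 in subunit a differed by −6.00 to −4.47 points with a library left out and by −5.28 with counts over implied length. Over all genes, limma-trend on log2(FPKM + 1) called 1803 higher and 2533 lower, against 2892 and 2584 in edgeR. Counts beyond 1.5 times were 0 to 1 for falls of V0 paralogs and of V1 genes, 1 to 4 for rises and 2 to 4 for falls of assembly factors (4 each as reported), 3 to 7 for rises of ion channels (6 as reported), and 1 to 2 for falls in the Ragulator and acid extrusion lists. Among the markers, 2 to 4 fibroblast genes fell and 0 to 1 epithelial genes rose. Same-numbered libraries of the groups did not deviate together (r = 0.0218, −0.0239 and 0.031). No pairing by number was detected, and the labels do not say whether same-numbered libraries were handled together. With the replicate number as a block, 7 of the 8 genes were again called higher. ATP6V0E2 gained a call with that block (log2 fold change 0.16, edgeR adjusted p = 0.0269).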

Other observations

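For ATP6AP1 the deposited tables differed in size of change: the ratio of lactic acid to PBS means was 1.37 in FPKM and 1.27 in CPM. For ATP6V0E1 the ratio was 1.34 in FPKM and 1.40 in CPM, so the order of these 2 genes differed between the scales. The gene length implied by the counts and FPKM of ATP6AP1 averaged 2330 bases over the lactic acid libraries and 2541 bases over the PBS libraries. Single libraries ran from 93.0% to 106.5% of the mean. For ATP6V0B the implied lengths were 1401 bases after lactic acid and 1400 in PBS. The reason for the difference was not tested.

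Of 13 V1 genes 8 had a promoter window, and among these ATP6V1G1 was the one that held CACGTG, within the longer TCACGTGA. Of all 35116 windows, 7.26% held CACGTG and 0.98% TCACGTGA. ATP6V1G1 also held the form of TCACGTGA extended by a G in front and a C behind, found in 0.353% of windows. It was the called V1 gene with the smallest rise, 1.08-fold (68.9 ± 1.98 CPM after lactic acid and 63.9 ± 1.35 in PBS; edgeR adjusted p = 0.0367), and its call was lost under 11 of 17 alternatives. These included library totals alone (adjusted p = 0.0991), DESeq2 (0.0787), and edgeR without the first lactic acid (0.11), the second lactic acid (0.106), the first PBS (0.0592), the second PBS (0.14) or the third PBS library (0.0668). The motif matches of ATP6V1G1 and the size of its rise were noticed after the values were seen. A link between them was not tested, and the V1 genes without a window were not searched.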
